A study of Mus musculus with 5 samples.

Results

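The 43 genes described here are the enzymes and transporters of glycolysis, the oxygen-sensing factors that control many of them, and a set of textbook targets of the hypoxia response. They were chosen by name, matched to Ensembl IDs through their symbols, and all 43 were found among the 41388 gene IDs of the tables. They were followed in 5 bulk RNA sequencing libraries of sorted aortic macrophages of the mouse. Adventitia was sampled in 3 libraries from ApoE-/- mice on the C57BL/6 strain, kept for 28 weeks on high fat diet (6 mice are named for the group), and held live CD64+ cells of the outer aortic layer, abdominal part included. The 2 intima libraries came from C57BL/6 mice with no genotype change or diet named and no age given for either group, each made from 5 pooled animals, and held live CD64+ CD11c+ MHC II+ cells from the thoracic aorta after its outer layer was peeled off. Both tissues were digested with enzymes before sorting. Layer, genotype, diet, aortic segment and sort gate differ together between the groups, and their parts in any difference cannot be told apart. The labels do not say how the 6 ApoE-/- mice were divided among libraries, and p-values here reflect only how far these libraries differ, which may be partly technical.

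Glycolysis splits glucose into pyruvate in the cytosol, and lactate dehydrogenase then turns pyruvate into lactate when it does not enter the mitochondria. Hypoxia-inducible factors pair an oxygen-regulated alpha subunit, HIF1A or EPAS1, with a stable partner; prolyl hydroxylases mark the alpha subunit for the VHL ubiquitin ligase when oxygen is plentiful. Macrophages are known for a strong glycolytic response to inflammatory signals, in which HIF1A takes part, while EPAS1 is also prominent in endothelial cells.

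Promoter sequence is shown for the most abundant members and for those with large fitted differences, because HIF binds a short core, ACGTG or GCGTG, that can be read directly in them. The windows are the 250 bases before an annotated start, from RefSeq on GRCm38.p6, given 5′ to 3′ on the strand of the gene, and capitals mark each core on either strand (CACGT and CACGC are the reverse complements). Aldoa, Pkm, Ldha and Pdk1 have several annotated starts; the window shown is 1 that holds a core, and another window of Aldoa, of Pkm and of Pdk1 holds 0. The window of Aldoa, the muscle-type aldolase, is chr7:126799255-126799504 (minus strand), and that of Pkm (pyruvate kinase) is chr9:59656977-59657226 (plus strand). The windows of Ldha (lactate dehydrogenase A, chr7:46845554-46845803, plus strand), Ldhb (lactate dehydrogenase B, chr6:142507958-142508207, minus strand) and Pdk1 (pyruvate dehydrogenase kinase, chr2:71872974-71873223, plus strand) follow.
Aldoa: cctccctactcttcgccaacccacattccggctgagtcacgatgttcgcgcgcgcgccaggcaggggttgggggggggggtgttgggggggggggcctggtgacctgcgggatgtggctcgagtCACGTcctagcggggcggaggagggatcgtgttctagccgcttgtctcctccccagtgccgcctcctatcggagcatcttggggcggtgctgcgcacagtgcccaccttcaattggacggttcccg
Pkm: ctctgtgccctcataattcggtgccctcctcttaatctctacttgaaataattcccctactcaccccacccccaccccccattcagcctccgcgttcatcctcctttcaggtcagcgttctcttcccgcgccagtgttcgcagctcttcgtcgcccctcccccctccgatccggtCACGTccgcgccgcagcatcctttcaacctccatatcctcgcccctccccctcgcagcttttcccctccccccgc
Ldha: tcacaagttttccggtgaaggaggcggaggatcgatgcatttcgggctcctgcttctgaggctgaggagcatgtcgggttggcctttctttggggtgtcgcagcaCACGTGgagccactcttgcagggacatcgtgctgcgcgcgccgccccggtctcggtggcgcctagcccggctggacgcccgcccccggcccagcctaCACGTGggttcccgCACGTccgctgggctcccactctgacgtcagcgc
Ldhb: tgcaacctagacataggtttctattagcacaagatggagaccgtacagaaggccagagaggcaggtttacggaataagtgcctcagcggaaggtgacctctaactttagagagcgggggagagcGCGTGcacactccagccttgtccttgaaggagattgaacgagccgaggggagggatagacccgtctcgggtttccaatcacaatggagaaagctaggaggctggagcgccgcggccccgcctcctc
Pdk1: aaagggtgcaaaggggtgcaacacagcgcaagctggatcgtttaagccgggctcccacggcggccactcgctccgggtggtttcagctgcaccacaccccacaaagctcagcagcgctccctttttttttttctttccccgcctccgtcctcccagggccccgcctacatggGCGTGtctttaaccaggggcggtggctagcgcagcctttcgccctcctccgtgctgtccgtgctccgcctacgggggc
The window of Ldha held 3 separate stretches with a core, and 2 of them were the palindrome CACGTG, which is also the E-box read by other factors. The windows of Aldoa, Pkm, Ldhb and Pdk1 held 1 each, CACGT in Aldoa and Pkm and GCGTG in Ldhb and Pdk1. The table had windows for 38 of the 43 genes and none was printed for Epas1, Ndrg1, Bnip3l, Ero1l or Slc2a3. Of the 53 windows of these 38 genes, 42 (79.2%) held a core on either strand, against 38.6% of all 32851 windows; matches that overlapped counted as 1 stretch. The windows of these genes were richer in G and C, with a median of 62% against 52.4%. Among windows with 55.2% to 67.6% G and C, 23 of 29 (79.3%) held a core, against 54.5% of all 9456 windows in that range. Many of the genes were listed because they are known HIF targets, so this share describes the list, and a match is not evidence of binding in these cells.

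The libraries held 3941381, 10076142 and 10054377 counted reads in the adventitia and 14970204 and 20806925 in the intima. Levels below are CPM, the reads of a gene scaled to the reads of its library, on library sizes adjusted by the TMM method (normalised CPM), and 3 reads, taken as the floor, equal 0.656 normalised CPM in the shallowest library and 0.151 in the deepest; floors and intervals cover counting error only. As a check of the knockout, Apoe stood at 18.2, 18.1 and 10.9 normalised CPM in the adventitia libraries and at 5560 and 4410 in the intima libraries. The summed level of 12 macrophage markers was 22100 to 32400 normalised CPM in the adventitia and 31500 and 21200 in the intima. Lyz2 and C1qb made up most of it. Adgre1, Cd68 and Cx3cr1 lay higher in both intima libraries than in all adventitia libraries (25%, against 17.7% of all genes tested). C1qa and Itgam lay lower in both (16.7%, against 23.2%). Endothelial markers summed to 33.9 to 53.6 in the adventitia and to 844 and 911 in the intima. Of the 13408 genes tested by edgeR's quasi-likelihood test, 90 (0.671%) were called at an adjusted p under 0.05, with 70 (0.522%) higher in the intima and 20 (0.149%) lower. With upper-quartile scaling the split was 46 higher and 29 lower, and with library size alone it was 59 and 34, since the median difference of all genes moved from 0.14 to -0.35 and -0.09 on the log2 scale. Single libraries weighed heavily: 10, 52 and 46 genes were called without adventitia 1, 2 or 3, and 389 and 136 without intima 1 or 2.

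Of the 43 genes, 39 passed the filter on low counts. Epas1 was called higher in the intima and none was called lower, so the called share was 2.56% against 0.671% of all genes tested. Without adventitia 1, 2 or 3 none of the genes was called. Fits without intima 1 or intima 2 leave 1 intima library. The log2 differences of Aldoa, Pkm and Epas1 were 1.93, 3.32 and 5.22 without intima 1. They were 1.78, 0.77 and 4.14 without intima 2. DESeq2 called 5 (Epas1, Aldoa, Pkm and Ldhb higher, Pdk1 lower), where it called 9.90% of all genes, and limma voom called 3 (Epas1, Aldoa and Ldhb), where it called 6.26%. The group ranges did not overlap in 10 of the 39 (25.6%, against 40.9% of all genes tested). In 9 the 2 intima libraries both lay above all 3 adventitia libraries (23.1%, against 17.7% of all genes tested), and in 1 they both lay below (2.56%, against 23.2%). An unadjusted p under 0.05 was found for 8 of the 39 and for 3010 of the 13408 genes. The median fitted difference, intima minus adventitia, was 0.72 on the log2 scale beside 0.14 over all genes, with 28 positive and 11 negative values; under upper-quartile scaling both medians moved down together, to 0.24 and -0.35, and 7 of the 39 changed sign. Pdk1 passed the filter through adventitia libraries alone, and no gene passed through intima libraries alone. Adm, Ankrd37, Car12 and Egln3 were not tested.

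**Figure D1:**
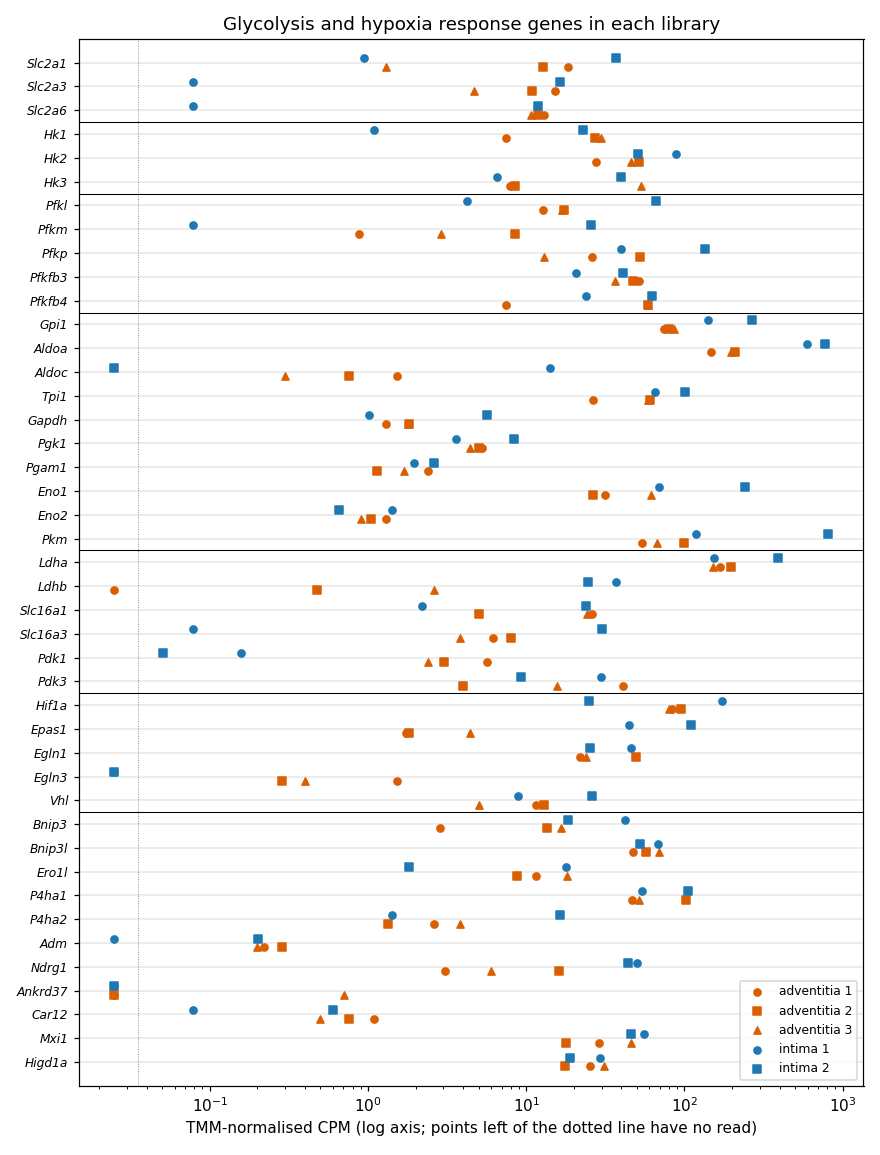
Normalised CPM (log axis) of the 43 genes in each of the 5 libraries, grouped by role; orange marks adventitia and blue intima, 1 symbol per library, and points left of the dotted line have no read. Epas1 and Ldhb have both intima points well to the right of the adventitia points and Pdk1 has them well to the left, and for genes such as Slc2a1, Pfkm and Hif1a the 2 intima libraries lie on either side of the adventitia.

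Glucose enters through the facilitated transporters Slc2a1, Slc2a3 and Slc2a6. Slc2a1, the ubiquitous glucose transporter GLUT1, was at 18.4, 12.7 and 1.30 normalised CPM in the adventitia and at 0.941 and 37.2 in the intima. The intima libraries thus held both the lowest and the highest value, and the fitted log2 difference of 0.82 (SE 1.58, edgeR adjusted p = 0.824) became -3.40 without intima 2. Slc2a3, the neuronal-type transporter GLUT3, and Slc2a6, a transporter of lysosomal membranes, had 1 read each in intima 1 and 324 and 234 reads in intima 2. As a share of the summed RPKM of the 3 transporters, which does not depend on scaling between libraries, Slc2a1 made up 51.2, 46.3 and 10.3% in the adventitia and 90.3 and 68.8% in the intima. The share of Slc2a6 was 32, 38.1 and 75.1% in the adventitia and 6.69 and 19.3% in the intima. The groups did not overlap for any of the 3 transporters, but intima 1 rested on only 14 reads, for which a 95% Wilson interval on its Slc2a1 share runs from 70.1 to 97.4%. The two-sided exact permutation test gave p = 0.1 for Slc2a1, the smallest p that 10 splits of these libraries allow, and an adjusted p of 0.45 over the 18 shares tested.

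Hexokinases trap glucose by phosphorylating it, and no hexokinase was called. Hk2, the inducible form, had the highest mean RPKM of the 3 and was at 27.8, 51.9 and 46.0 normalised CPM in the adventitia and 88.3 and 50.6 in the intima. Its groups overlapped, since intima 2 lay below adventitia 2 (log2 difference 0.73 with SE 0.64, adjusted p = 0.563). Hk3, the form of myeloid cells, ranged from 7.88 to 53.5 in the adventitia and was at 6.58 and 39.9 in the intima. Hk1, the housekeeping form, ranged from 7.44 to 29.8 in the adventitia and was at 1.10 and 22.9 in the intima. Hk2 formed 60.7, 61.1 and 30% of the RPKM of the family in the adventitia and 88.5 and 38.5% in the intima. The spread inside each group was wider than the 12.9 percentage points between the group means.

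Phosphofructokinase is the committed and most regulated step of the pathway, and each of its 3 isoforms was lower in intima 1 than in intima 2. Pfkp, the platelet-type isoform, was at 26.0, 52.7 and 12.9 normalised CPM in the adventitia and at 39.6 and 135 in the intima (log2 difference 1.51 with SE 0.78, adjusted p = 0.276). Pfkl, the liver-type isoform, was at 12.7, 17.3 and 16.8 in the adventitia and at 4.23 and 66.6 in the intima. Intima 1 was thus the lowest and intima 2 the highest library for Pfkl, and its log2 difference of 1.18 became -1.79 without intima 2. Pfkm, the muscle-type isoform, had 1 read in intima 1 and 508 in intima 2. Pfkfb3 and Pfkfb4 make and break fructose 2,6-bisphosphate, the activator of phosphofructokinase. Pfkfb4 was at 7.44, 58.6 and 58.7 in the adventitia and at 24 and 62.7 in the intima, with the low adventitia value in the shallowest library. Its log2 difference of 0.06 (SE 0.91) turned negative with upper-quartile, RLE or library size scaling. Pfkfb3 was at 36.5 to 51.6 in the adventitia and at 20.6 and 40.8 in the intima.

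The enzymes between glucose 6-phosphate and pyruvate included both of the highest levels per length. Of these 10 enzyme genes, 5 (Gpi1, Aldoa, Tpi1, Eno1 and Pkm) lay higher in both intima libraries than in all adventitia libraries (50%, against 17.7% of all genes tested). Of their fitted differences 9 were positive (90%, against 53.4% of all genes tested), with a median of 1.19, and none of the 10 was called. With upper-quartile scaling Pgk1 and Pgam1 took a negative sign, at -0.21 and -0.11. Per length, Aldoa was the most abundant of the 43 genes, with a mean RPKM over the 5 libraries of 133, followed by Pkm at 84.8 and Ldha at 70.4; their ranges over libraries overlapped.

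Aldoa, which cleaves fructose 1,6-bisphosphate, was at 147, 208 and 197 normalised CPM in the adventitia and at 595 and 770 in the intima. Both intima libraries stood clear of the adventitia, and the fold was 3.70 (log2 difference 1.89 with SE 0.40, edgeR adjusted p = 0.0735). Its adjusted p ranged from 0.00557 in DESeq2 to 0.234 without adventitia 1 and fell under 0.05 in 5 of 14 alternative analyses, with a positive sign in all 14. Pkm, whose M2 splice form is the one of proliferating and activated cells, was at 53.6, 98.9 and 67.2 in the adventitia and at 118 and 806 in the intima. Intima 1 lay just above the adventitia range and intima 2 far above it. The log2 difference of 2.66 (SE 0.67, adjusted p = 0.0870) was 0.77 without intima 2 and 3.32 without intima 1; the gene tables do not separate its splice forms. Eno1, the ubiquitous enolase, was at 31.3, 26.6 and 61.5 in the adventitia and at 69.3 and 242 in the intima (log2 difference 1.96 with SE 0.65, adjusted p = 0.117). It too lay close to the adventitia in intima 1 and far above it in intima 2, and the difference was 0.89 without intima 2.

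Gpi1, glucose 6-phosphate isomerase, was at 74.2, 80.1 and 86.5 normalised CPM in the adventitia and at 140 and 269 in the intima (log2 difference 1.35 with SE 0.48, adjusted p = 0.136). Tpi1, triose phosphate isomerase, was at 26.5, 60.4 and 59.2 in the adventitia and at 65.4 and 101 in the intima (log2 difference 0.77 with SE 0.62, adjusted p = 0.512). The gap between the groups was small for Tpi1, from 60.4 to 65.4. Aldoc, the brain-type aldolase, had 180 reads in intima 1 and none in intima 2, where 3 reads would equal 0.151 normalised CPM. Adventitia levels of Aldoc were 1.53, 0.761 and 0.300, and its log2 difference of 3.04 turned to -6.28 without intima 1. Eno2, the neuronal enolase, stayed at 0.655 to 1.41 in all 5 libraries.

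Gapdh, Pgk1 and Pgam1, usually among the most abundant transcripts of a cell, were recorded here at very low levels. Gapdh had 6, 19 and 18 reads in the adventitia and 13 and 113 in the intima. Reads were 50 bases long, so 50-base windows of the reference transcripts were compared between genes, and no reads were aligned anew. Of the windows of the principal Gapdh transcript, 82.5% also occur in another gene. At least 1 window of a Gapdh transcript is shared by 223 other genes, 213 of them pseudogenes. The 201 of these genes that were counted together held 375, 744 and 945 reads in the adventitia and 564 and 1337 in the intima. The closest copy, Gm7336, had 0 reads in every library. Of the principal transcripts, Eno1 shared 72.2% of its windows, Pgk1 68.0% and Bnip3 62.4%. In all, 15 of the 43 genes shared at least 10% of their windows and carry uncertain levels: Gapdh, Eno1, Pgk1, Bnip3, Pgam1, Higd1a, Pkm, Ldhb, Gpi1, Bnip3l, Pfkp, Ldha, Ndrg1, Aldoa and Ankrd37. Among abundant enzymes the share was 7.51% for Tpi1, 13.9% for Aldoa and 17.1% for Ldha, and Epas1 and Pdk1 shared none. How reads with several matches were treated is not given in the sources used here. Exons of Gpi1 overlap those of Gm26762 over 16.5% of their length and those of Ankrd37 overlap Lrp2bp and Ufsp2 over 28.9%; with no strand setting stated, reads there cannot be assigned to either gene.

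**Figure D2:**
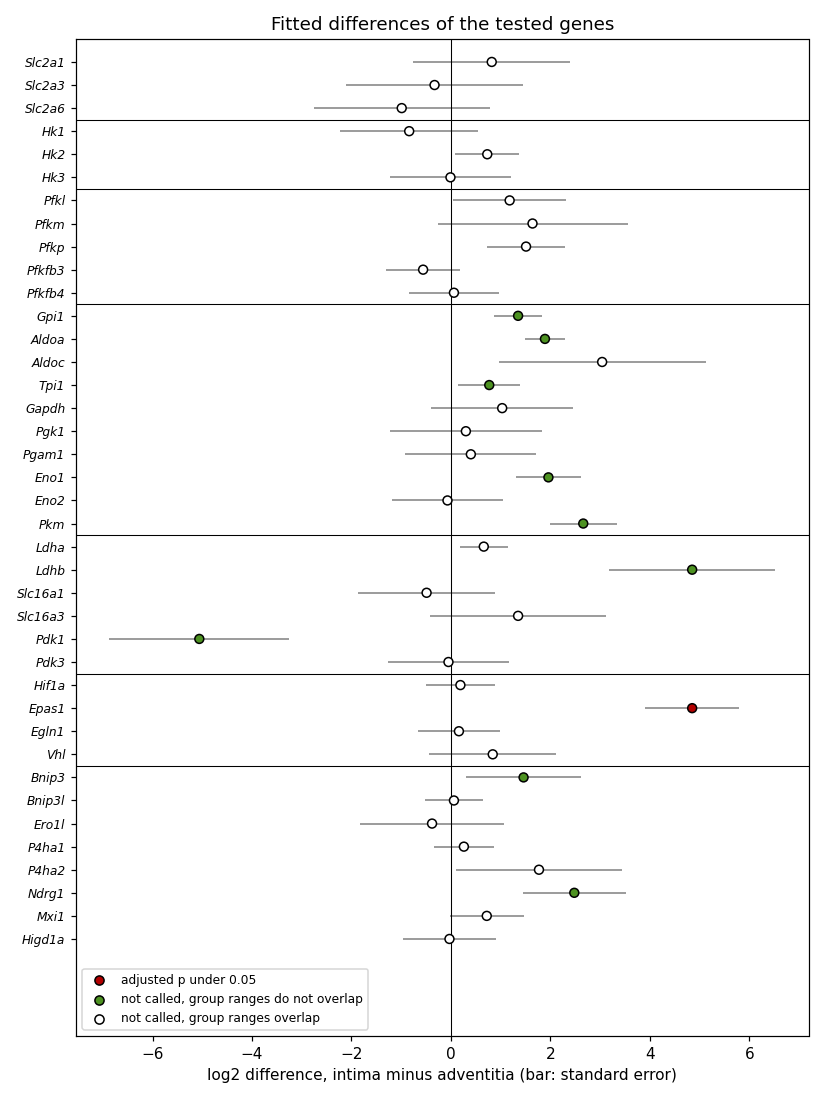
Fitted log2 difference, intima minus adventitia, for the 39 genes tested, with standard errors as bars and horizontal lines between roles; red is the call at an adjusted p under 0.05, green the uncalled genes whose group ranges do not overlap. Epas1, at 4.85, is the red point, and Ldhb has the same fitted value with a wider bar.

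At the end of the pathway, lactate dehydrogenase B was recorded mainly in the intima libraries. Ldhb, the isoform of oxidative tissues such as heart, was at 0, 0.476 and 2.60 normalised CPM in the adventitia and at 36.8 and 24.6 in the intima. The adventitia values came from 0, 5 and 26 reads and the intima values from 470 and 488. The groups were far apart and the fitted fold was 28.8, and edgeR did not call it (log2 difference 4.85 with SE 1.67, adjusted p = 0.127). DESeq2 and limma voom called it, and its adjusted p reached 0.00632 at the lowest and 0.344 at the highest over 14 alternatives. Ldha, the isoform of glycolytic tissues, was at 168, 196 and 151 in the adventitia and at 153 and 388 in the intima, so the groups overlapped (log2 difference 0.66 with SE 0.48, adjusted p = 0.467; -0.07 without intima 2). Ldhb therefore made up 0, 0.459 and 3.17% of the RPKM of both dehydrogenases in the adventitia and 31.3 and 10.7% in the intima. The exact permutation test gave p = 0.1, the smallest possible (adjusted p = 0.45), and Ldha remained the larger part in each library.

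Pdk1, a kinase that shuts pyruvate out of the mitochondria and a known HIF target, was the 1 tested gene lower in both intima libraries than in all adventitia libraries. It had 26, 32 and 24 reads in the adventitia and 2 and 1 in the intima. The levels were 5.69, 3.04 and 2.40 normalised CPM against 0.157 and 0.0504, and the ratio of adventitia to intima was 35.6 with a 95% counting interval of 12.2 to 172. edgeR did not call it (log2 difference -5.06 with SE 1.81, adjusted p = 0.137), and DESeq2 did. Pdk1 passed the filter through adventitia libraries alone, so the ratio and both tests concern a gene kept for its adventitia level. Fibroblast markers also had lower levels in the intima, with a sum of 680, 655 and 1570 normalised CPM in the adventitia and 372 and 335 in the intima. Of these 10 markers, 9 had negative differences, and 1, Lum, was called lower, against 0.149% of all genes tested. In both intima libraries 4 lay lower (40%, against 23.2% of all genes tested) and none of the 10 lay higher (0%, against 17.7%). Among the 4, Lum, Pdgfra and Dpt passed the filter through adventitia libraries alone, so their lower values concern genes kept for their adventitia level. Adipocyte markers also summed lower, at 3.28, 3.14 and 2.50 in the adventitia and 0.235 and 0.0504 in the intima. Neutrophil markers summed to 91.2, 42.9 and 46.4 in the adventitia and to 0.470 and 43.3 in the intima. T and NK cell markers summed higher in the intima, at 129 and 90.3 against 8.97, 14.1 and 9.51. B cell markers did too, at 1190 and 930 against 266, 402 and 782. The part of any of these cells in the Pdk1 level was not tested. Pdk3, another kinase of the family, was far more abundant per length, at 4 to 40.7 normalised CPM in the adventitia and 29.7 and 9.21 in the intima. The monocarboxylate carriers, which move lactate across the membrane, did not separate the groups. Slc16a1 was at 5.04 to 26.0 in the adventitia and at 2.19 and 23.9 in the intima, and Slc16a3 had 1 read in intima 1 and 602 in intima 2.

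**Figure D3:**
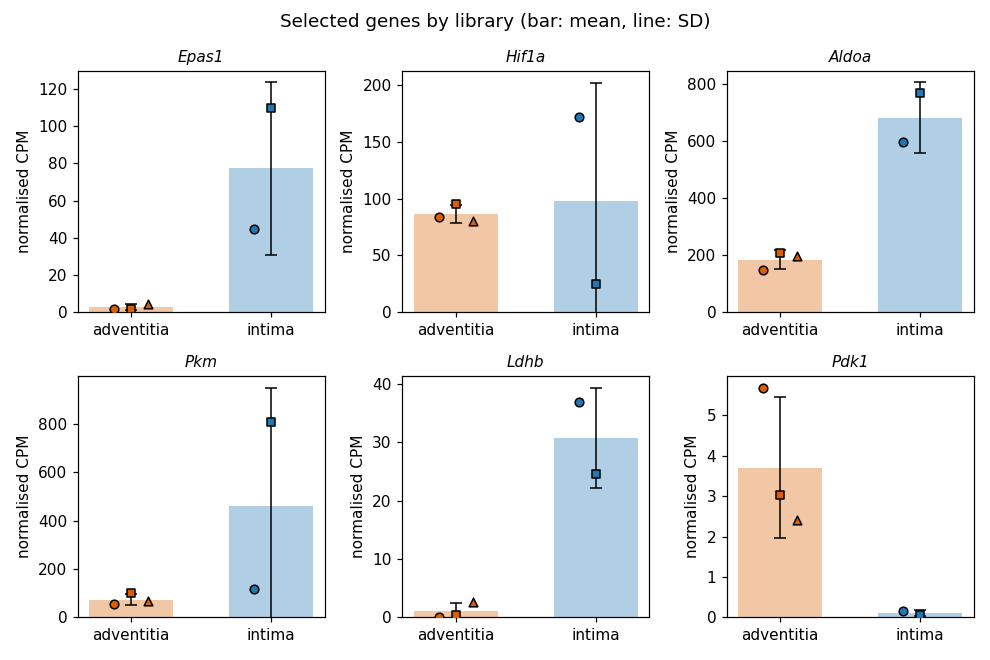
Normalised CPM of Epas1, Hif1a, Aldoa, Pkm, Ldhb and Pdk1, with 1 point per library, bars at the mean of 3 adventitia or 2 intima libraries and lines of 1 SD (cut at 0). Epas1, Aldoa and Ldhb have both intima points above the adventitia points, Pkm and Hif1a have 2 intima points far apart, and Pdk1 lies near 0 in the intima.

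Epas1, the alpha subunit also called HIF2A, was the called gene. It stood at 1.75, 1.81 and 4.40 normalised CPM in the adventitia (2.65 ± 1.52, SD, n = 3) and at 44.5 and 110 in the intima (77.2 ± 46.3, SD, n = 2). The highest adventitia value was thus 4.40 and the lowest intima value 44.5, and the fitted fold was 28.8 (log2 difference 4.85 with SE 0.94, edgeR adjusted p = 0.0464). The sign was positive in 14 of 14 alternative analyses, with log2 differences from 4.14 to 5.39. The call sat near the threshold: the adjusted p was 0.0895 with upper-quartile, 0.0580 with RLE and 0.0624 with library size scaling, 0.0701 with counts thinned to the smallest library, 0.215, 0.125 and 0.121 without adventitia 1, 2 or 3, and 0.0955 without intima 2.

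Most endothelial markers were also higher in the intima. Pecam1, an adhesion molecule of endothelial junctions, was at 0.801 to 4.47 normalised CPM in the adventitia and at 226 and 341 in the intima. Of the 10 endothelial markers tested, 3 (Pecam1, Vwf and Emcn) were called higher in the intima, against 0.522% of all genes tested. In 8 both intima libraries lay above all adventitia libraries (80%, against 17.7% of all genes tested). In 1, the VEGF receptor Kdr, both lay below, at 0.235 and 0.0504 (10%, against 23.2%). Cdh5, Vwf and Emcn were lower in intima 2 than in intima 1 (29.7 against 105, 135 against 196, 75.2 against 157). Epas1, Pecam1, Tie1, Tek, Eng and Egfl7 were higher in intima 2. Of the 12 markers listed, Cldn5 had no read in intima 1 and Erg and Robo4 none in intima 2. Smooth muscle markers summed to 14.9 to 52.5 in the adventitia and to 345 and 96.2 in the intima. Most of the intima sum came from Acta2 (171 and 24.6) and Tagln (124 and 52.3). Of the 7 tested, these 2 lay higher in both intima libraries (28.6%, against 17.7% of all genes tested). Another 2, Myh11 and Myocd, lay lower in both (28.6%, against 23.2%). Kdr, Myh11 and Myocd passed the filter through adventitia libraries alone and Tagln through intima libraries alone. Their values thus concern genes kept for their level in 1 group. The part of endothelial or smooth muscle cells, or of their RNA, in the Epas1 level was not tested. In bulk libraries more cells of a type cannot be told apart from more RNA per cell.

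Hif1a, the other alpha subunit, was at 83.6, 95.1 and 80.0 normalised CPM in the adventitia and at 172 and 24.9 in the intima. The 3 adventitia values were close together, while 1 intima library lay above and the other below them (log2 difference 0.19 with SE 0.70, adjusted p = 0.915; -1.93 without intima 1 and negative with upper-quartile or library size scaling). Per length, Hif1a was at 16.4, 16.8 and 13.5 RPKM in the adventitia, where Epas1 was at 0.382, 0.355 and 0.824. In intima 1 the RPKM was 24.9 for Hif1a and 7.15 for Epas1, and in intima 2 it was 4.03 and 19.8. Epas1 therefore made up 2.27, 2.07 and 5.76% of the summed RPKM of the pair in the adventitia and 22.3 and 83.1% in the intima. The ranges did not overlap, and the difference of the group means, 49.3 percentage points, had the smallest permutation p the design allows, 0.1 in the exact test (adjusted p = 0.45).

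The enzymes that mark the alpha subunits showed no call. Egln1, the main oxygen sensor, was at 21.9 to 49.2 normalised CPM in the adventitia and at 45.9 and 25.2 in the intima. Vhl, which recruits the hydroxylated subunit to its ubiquitin ligase, was at 5.00 to 12.9 in the adventitia and at 8.94 and 26.2 in the intima. Egln3, the hypoxia-inducible hydroxylase, had 7, 3 and 4 reads in the adventitia and none in the intima, which makes it at least 6.07-fold lower there if 3 reads are allowed for the intima libraries together. It was not tested.

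**Figure D4:**
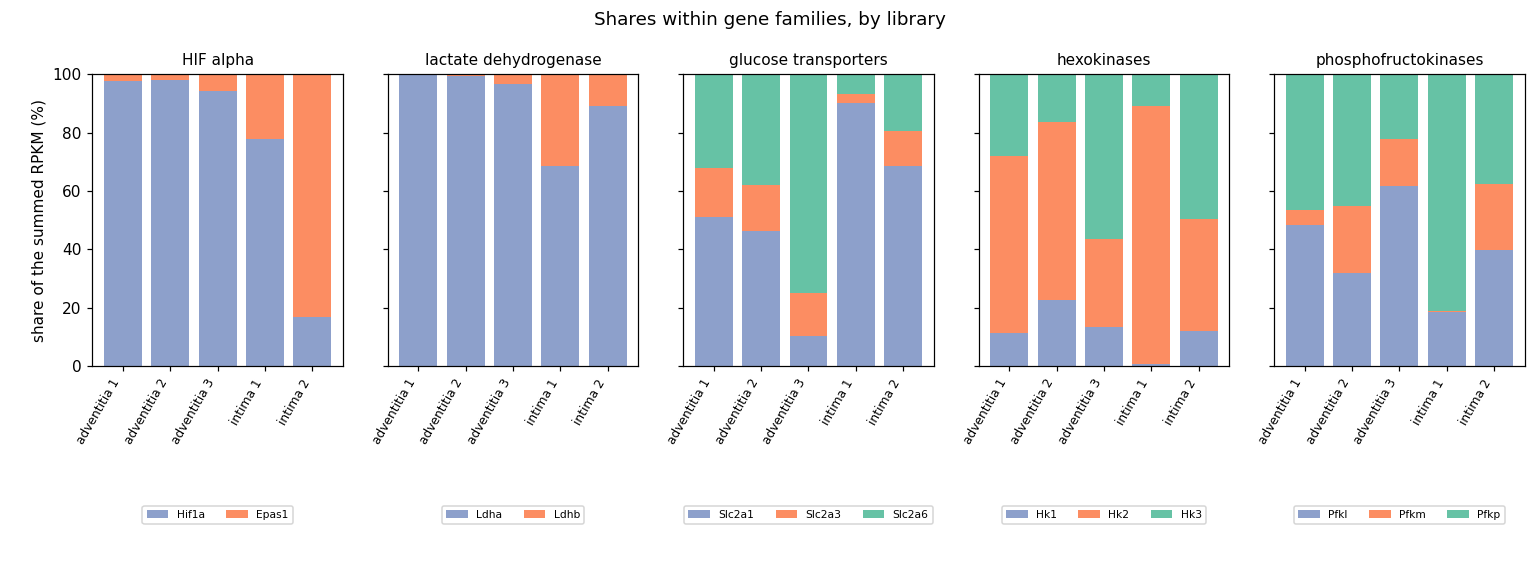
Share of each gene in the summed RPKM (%) of its family, for 5 families and each of the 5 libraries. The Epas1 part of the HIF alpha bar grows from 2.07 to 5.76% in the adventitia to 22.3 and 83.1% in the intima, and the hexokinase and phosphofructokinase bars vary within each group.

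Among the 11 hypoxia response targets, 8 were tested and none was called, with a median log2 difference of 0.49. Ndrg1, a stress-responsive gene of growth arrest and differentiation, was at 3.06, 16.2 and 6.00 normalised CPM in the adventitia and at 50.2 and 44.2 in the intima. Its 2 intima values were close together and clear of the adventitia (log2 difference 2.48 with SE 1.03, adjusted p = 0.182). Bnip3, a mitochondrial receptor for mitophagy, was at 2.84, 13.6 and 16.5 in the adventitia and at 42.3 and 18.4 in the intima, and intima 2 lay just above the adventitia range (log2 difference 1.46 with SE 1.15, adjusted p = 0.505). P4ha1, the main catalytic subunit of collagen prolyl hydroxylase, was at 46.8, 103 and 51.4 in the adventitia and at 54.3 and 106 in the intima. Its groups overlapped almost wholly (log2 difference 0.26 with SE 0.61, negative with upper-quartile scaling). P4ha2, its isoform, was at 2.63, 1.33 and 3.80 in the adventitia and at 1.41 and 16.3 in the intima. Bnip3l, a relative of Bnip3, was the steadiest of the targets, at 47.0 to 69.5 in the adventitia and 68.0 and 52.7 in the intima. Higd1a, a mitochondrial respiratory factor, spanned 17.6 to 31.0 and 29.4 and 18.9, and Mxi1, an antagonist of MYC, spanned 17.8 to 45.7 and 55.7 and 45.7. Ero1l, the oxidase of disulphide formation, was at 8.75 to 18 in the adventitia and at 17.8 and 1.81 in the intima. The remaining 3 were at the limit of detection: the peptide hormone gene Adm had 6 reads in the adventitia and 4 in the intima, the carbonic anhydrase gene Car12 had 18 and 13, and Ankrd37 had 7 reads in adventitia 3 and none elsewhere.

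Intima 1 and intima 2 stood further apart than any pair of adventitia libraries. Of the 39 tested genes, 15 (38.5%) differed over 4-fold between intima 1 and intima 2, against 35.3% of all genes tested, and 12 of the 15 were higher in intima 2. The pairs of adventitia libraries had 5 or 6 such genes (12.8 to 15.4%, against 16.3 to 21.0% of all genes). In each pair the share was near that of all genes tested. Slc2a3, Slc2a6, Pfkm and Slc16a3 had 1 read each in intima 1 and 324, 234, 508 and 602 reads in intima 2. Hif1a, Ero1l and Aldoc went the other way, with the lower level in intima 2. Cell cycle genes were also highest in intima 2, with a summed level of 180 to 322 normalised CPM in the adventitia, 544 in intima 1 and 1740 in intima 2. Of these 12 genes, 6 had both intima libraries above the adventitia (50%, against 17.7% of all genes tested) and none was called. All 12 fitted differences were positive, with a median of 1.77 beside 0.14 over all genes. The part of cell cycle genes in the levels of Pkm, Eno1 and the other enzymes was not tested. The 12 dissociation-induced early genes summed to 12500 to 16600 in the adventitia and to 14700 and 14800 in the intima; 9 of their 12 fitted differences were negative, with a median of -0.64 beside 0.14 over all genes, and none was called.

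**Figure D5:**
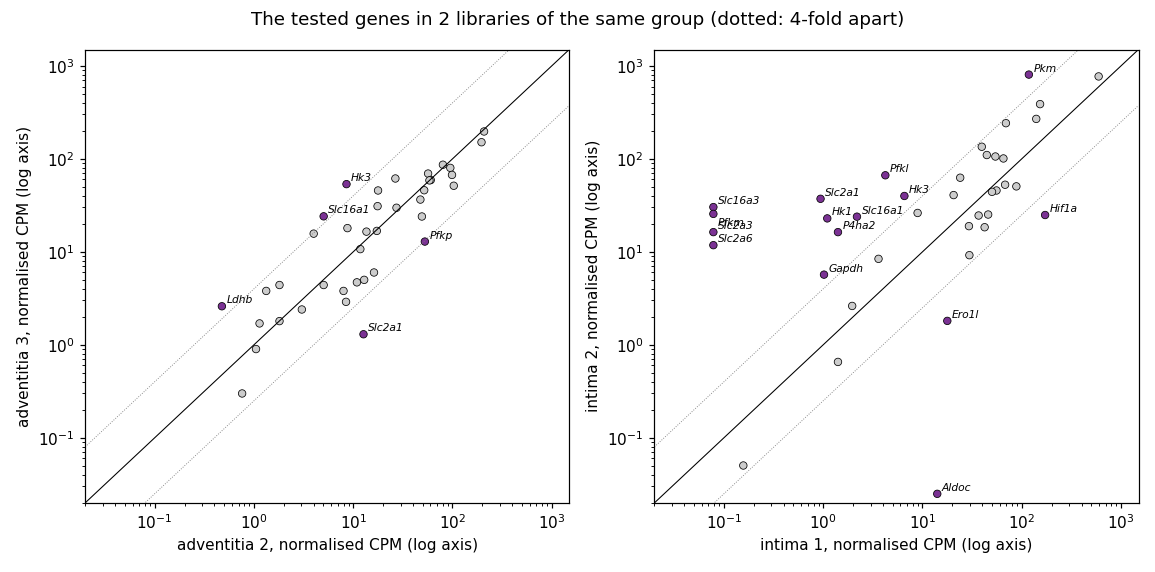
Normalised CPM of the 39 tested genes in adventitia 2 against adventitia 3 (left) and in intima 1 against intima 2 (right), on log axes; the solid line is equality, dotted lines are 4-fold, and genes beyond them are purple and named. The right panel has 15 purple genes, 12 of them above the line, and the left panel has 5.

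The 4 further lists below cover neighbouring pathways, with 0 of 90 tested genes called in edgeR (0.671% of all genes) and 19 of 90 at an unadjusted p under 0.05 (3010 of 13408 over all genes). DESeq2 called 7 of the 90, where it called 9.90% of all genes, and limma voom 3, where it called 6.26%. Of 31 other genes of glycolysis and gluconeogenesis, 20 were tested, with a median log2 difference of 0.26. The smallest p belonged to Bpgm, which makes 2,3-bisphosphoglycerate, at 4.59, 2.66 and 5.60 normalised CPM in the adventitia and at 22.3 and 46.1 in the intima (log2 difference 2.99 with SE 1.17, adjusted p = 0.164). Of 37 other hypoxia response genes, 35 were tested, with a median of 0.38; Rcor2, a corepressor subunit, had 4, 10 and 7 reads in the adventitia and none in the intima, at least 9.11-fold lower there by the same floor (adjusted p = 0.0868); like Pdk1, it passed the filter through adventitia libraries alone. All 11 genes of the pentose phosphate pathway, which branches from glucose 6-phosphate to make NADPH and ribose, were tested, with a median of 1.02 and 5 lying higher in both intima libraries (45.5%, against 17.7% of all genes). Tkt, its transketolase, was at 119, 66.8 and 78.1 in the adventitia and at 175 and 492 in the intima (log2 difference 1.92 with SE 0.53, adjusted p = 0.0966). All 24 genes of pyruvate entry and the citric acid cycle were tested, with a median of 0.86. In both intima libraries 11 of them lay higher (45.8%, against 17.7% of all genes) and 2 lower (8.33%, against 23.2%). Sdha, the catalytic subunit of succinate dehydrogenase, was at 116, 153 and 112 in the adventitia and at 247 and 555 in the intima (log2 difference 1.66 with SE 0.47, adjusted p = 0.103).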

How the data were processed

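Sorted cells were lysed, cDNA was made with the SMARTer Ultra Low kit, amplified over 12 cycles and sequenced as single reads of 50 bases, per the labels' protocols. The authors deposited 1 table per library with the read count, CPM and RPKM of 41388 Ensembl IDs on GRCm38, per the file headers. STAR 2.0.4b, Subread and featureCounts 1.4.5 are named in the submitters' processing notes; annotation release, strand setting and the handling of reads with several matches are not given in the sources used here. The deposited CPM and RPKM equalled those recomputed from the deposited counts and gene lengths, with 0 mismatches at a tolerance of 1e-06. No 2 libraries held identical counts.

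All 13408 genes passing filterByExpr (minimum count 10, minimum total 15) were tested on counts with edgeR 4.0.16 in R 4.3.3 (TMM, glmQLFit and glmQLFTest, intima minus adventitia, Benjamini-Hochberg adjustment, call below 0.05); SE is the size of a log2 difference divided by the square root of F. Totals ran from 3941381 to 20806925 reads. Alternatives were upper-quartile, RLE and library size scaling, DESeq2 1.42.0, voom of limma 3.58.1, 2 other filters (1 read in any library; 1 CPM in every library of a group), thinned counts, a replicate block, and leaving out single libraries. A lone intima library was taken to vary like the adventitia ones. Shares used deposited RPKM and a two-sided exact permutation test over 10 splits. Symbols were found for 40254 IDs. Copies were sought as identical 50-base windows in GENCODE M21 transcripts and promoters came from a RefSeq table. The test was checked on simulated counts. Python 3.11.15, pandas 2.3.3, scipy 1.17.1 and matplotlib 3.10.9 were used.

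The 43 genes and the other lists were chosen with earlier results of these data known. Values in every library are given for called genes, the 16 with the smallest unadjusted p, Hif1a and Epas1, and the most abundant gene of each role; in the other lists, for the gene with the smallest p. Values of other genes, and the printed promoters, were chosen after their values were seen.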

Additional observations from a re-analysis of the deposited data

How the results depend on the processing

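The log2 difference of Epas1 stayed positive in every alternative run and passed the threshold in 6 of 14; where it did not pass, it was 4.36 (upper-quartile), 4.69 (RLE), 4.67 (library size alone) and 4.64 (thinned counts), and it ran from 4.14 to 5.39 with single libraries left out. Scaling sets the sign of small differences. With upper-quartile factors 0 of the 43 genes were called, their median was 0.24, and Pfkfb4, Hif1a and P4ha1 turned to -0.42, -0.27 and -0.23. RLE factors gave 0 calls and -0.08 for Pfkfb4. Library size alone gave 0 calls, a median of 0.48, -0.09 for Pfkfb4 and -0.11 for Hif1a. Thinned counts gave 0 calls, a median of 0.22, -0.32 for Pfkfb4, -0.11 for Hif1a and -0.24 for P4ha1.

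DESeq2 called 1225 genes, 5 of the 43 and 7 of the neighbouring lists, with Pfkfb4 at -0.08. Limma voom called 839, 3 and 3, with a median of 0.37, Aldoc at -0.12 and Hif1a at -0.57. The 1-read filter called 386 genes (1.22% of those tested), 3 of the 43 (6.98%) and 3 of the neighbouring lists. The 1 CPM filter called 396 genes (3.72% of those tested) and 2 of the 37 tested genes of the set (5.41%). The median was then 0.55, with Pfkfb4 at -0.10. The replicate block called 183 genes (1.36% of those tested) and 4 of the neighbouring lists. It kept the call of Epas1 (edgeR adjusted p = 0.0494), which was 2.56% of the tested genes of the set. The median was 0.32, with Slc2a1, Aldoc and Hif1a at -1.32, -0.54 and -0.45. The deviations of same-numbered libraries from their group means had correlations of 0.03 and 0. Deviations of the 2 intima libraries mirror each other by construction, so these values cannot decide whether same-numbered libraries shared a batch.

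With single libraries left out, 10 to 389 genes, 0 to 3 of the 43 and 0 to 2 of the neighbouring lists were called, 12 to 31 of the 43 had groups that did not overlap (fewer libraries overlap less often by construction), and the median ran from 0.29 to 0.72. Only tested genes, 38 to 40 of the 43 in these fits, could enter the count of groups that did not overlap. The share of all genes in the same fits is not given here, so that count cannot be set against a background. With all 5 libraries the share was 25.6%, against 40.9% of all genes tested. Among the genes given in every library, the ranges that crossed 0 were -3.40 to 1.66 for Slc2a1, -1.79 to 1.96 for Pfkl, -0.71 to 0.45 for Pfkfb4, -0.07 to 1.04 for Ldha, -1.93 to 1.09 for Hif1a, -0.22 to 0.66 for P4ha1, -0.78 to 2.52 for P4ha2 and -6.28 to 4.15 for Aldoc. Other genes of the set crossed 0 too: over all that were tested, 7 changed sign without intima 1 and 15 without intima 2. Shares that crossed 0, in percentage points, were -12.1 to 37.9 for Hk2, -22.9 to 15.7 for Hk3, -14.1 to 8.04 for Pfkm, -0.403 to 43 for Pfkp, -1.10 to 25.8 for Pfkfb4, -0.435 to 1.53 for Aldoc, -25.4 to 23.1 for Slc16a3 and -1.34 to 6.18 for P4ha2. Except where a construction is named, the cause was not tested. In all, 374 of 497 alternative values stayed with the reported value (same sign and side of the threshold, counts within 1.5 times, or a shift under the spread between libraries), and 37 changed sign. Counts of a few reads limit what can be said of some genes, among them Pdk1, Egln3 and Ankrd37. The lowest counts of Pdk1 and Egln3 were in the intima libraries, which were the deepest.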
